A study of Mus musculus with 4 samples.

Results

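The BCL2 family members examined here are 10 mouse genes that set the threshold for mitochondrial cell death. They were chosen by gene name and are 7 BH3-only genes (Hrk, Bbc3, Pmaip1, Bcl2l11, Bid, Bik and Bmf), 2 anti-apoptotic genes (Bcl2l1 and Mcl1) and 1 effector (Bax). All 10 are among the 36918 gene names on the array, and 22 of the 56605 probes read them. Expression was measured in mouse pancreatic cancer cells of the C57BL/6 strain, in lines named K5 and K6. For each line there was 1 control sample given DMSO and 1 sample given 100 nM halofuginone over 24 hours, hence 4 arrays in all. Halofuginone is an inhibitor of prolyl-tRNA synthetase. The design compares treated with control cells within each line, and the title of the series concerns loss of Nrf2 and the response to gemcitabine. The sources used here do not say how K5 and K6 differ, nor whether the 4 samples are separate cultures. The p-values therefore measure only how far the change differs between the sample pairs of K5 and K6, a spread that may be technical.

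Proteins of the BCL2 family share short homology domains and meet at the outer membrane of the mitochondrion. The effectors BAX and BAK form pores there, which release cytochrome c and start the caspase cascade. Anti-apoptotic proteins such as BCL-XL (gene Bcl2l1) and MCL1 hold the effectors in check, and BH3-only proteins, which carry a single such domain, bind the anti-apoptotic proteins or the effectors and tip the balance towards death. Several BH3-only genes are known to be switched on by stress, Bbc3 (PUMA) and Pmaip1 (NOXA) through p53 and through the ATF4 and CHOP factors of the amino acid and unfolded protein responses. MCL1 is a short-lived protein, and many epithelial cancers depend on it or on BCL-XL.

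Levels are given as log2 of the processed array signal minus the 75th percentile of the same array, so a difference of 1 is a 2-fold difference and a negative level lies below that percentile. Each gene is represented by its brightest probe on average, and it was tested when 2 or more arrays read that probe well above background. Because probes differ in brightness, levels of different probes are not compared. The sequences shown are the probe pairs of Hrk and Bmf, the members that passed the test, and the region just upstream of Hrk. The first 30 bases of these 60-base probes, as the files give them, identify the targets.
Hrk probe at transcript position 516: ccccagtgctatttagctatatatatacaa
Hrk probe at transcript position 5301: ccctacctggatgctttgtacatatttgtt
Bmf probe at transcript position 754: tggtggcaggtcttcctcttccttcaaaac
Bmf probe at transcript position 4570: catgtgtaaatatcctctcatccatcaagt
The Hrk probes lie on mm9 at chr5:118634638-118634697 and chr5:118639423-118639482, on the plus strand. The Bmf probes lie at chr2:118358312-118358371 and chr2:118354496-118354555, on the minus strand. In each pair the distance along the transcript equals that along the genome, 4785 bases for Hrk and 3816 bases for Bmf, so no intron separates the probes of a pair.

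After halofuginone, Hrk rose and Bmf fell among the 9 members that could be tested, and the other 7 did not pass the threshold. The test was limma with the line as a block and a Benjamini-Hochberg adjusted p under 0.05 over all 19093 tested genes. Of these genes 3.88% were called higher and 5.08% lower, and with 1 of 9 members in each direction nothing is read from the count itself. All 9 tested members had the same direction in both lines, 8 up and 1 down, as 38.7% of all tested genes were up in both and 38.0% down in both, although Bcl2l11 in K5 (0.0093) turned negative in 6 of the 7 other ways of preparing the values. In 7 members both halofuginone arrays were above both control arrays, against 30.0% of tested genes, and in 1 both were below, against 28.6%. Bcl2l11 was the member whose groups overlapped. Hrk is among the 8 up and the 7 without overlap. It entered the test only through its halofuginone arrays, so nothing is read from its part in these counts. The fit has 1 residual degree of freedom, so each SE leans on a variance pooled over all genes, and a gene that moves in opposite directions in the lines cannot pass.

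**Figure D1:**
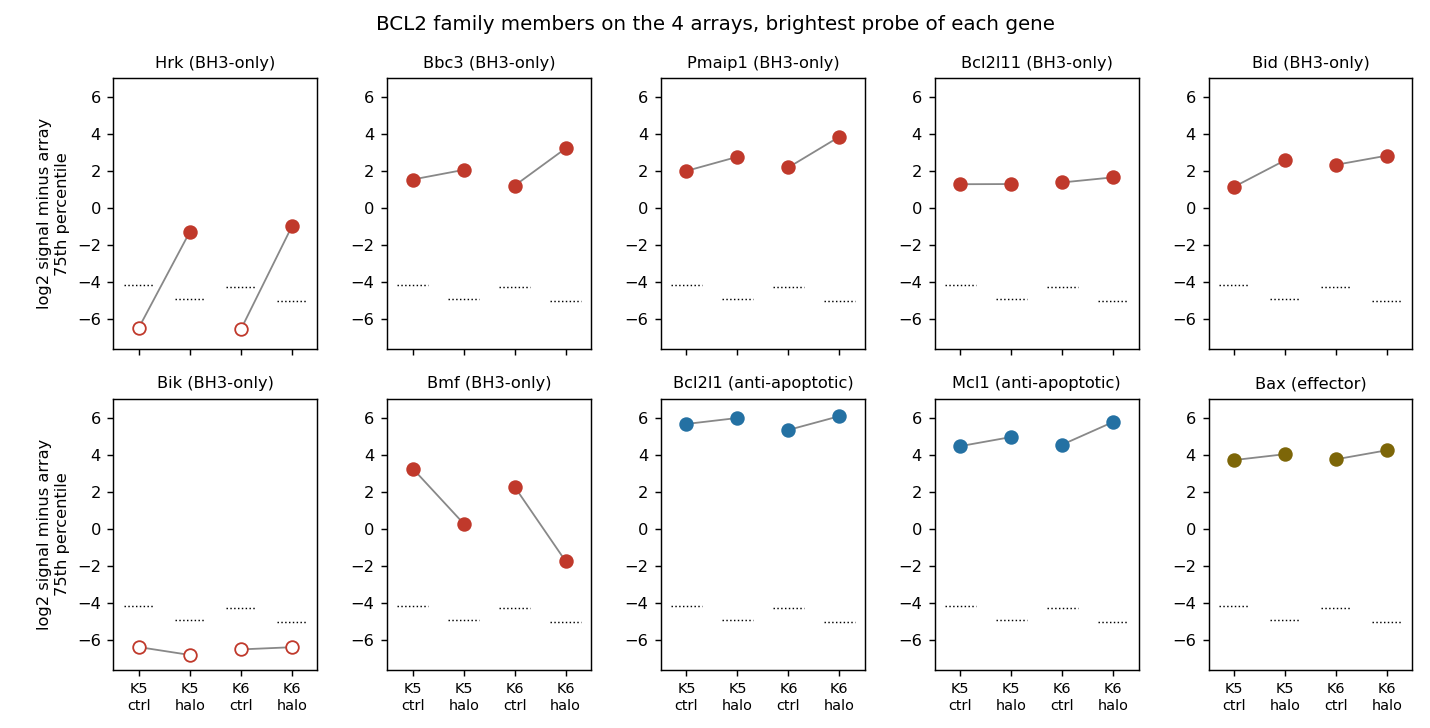
Log2 signal minus the array's 75th percentile (y axis) of the brightest probe of each member on the 4 arrays (x axis: control and halofuginone in K5 and K6). Filled points are well above background, open points are not, and dotted ticks mark each array's detection limit; Hrk goes from open points at -6.44 and -6.54 to filled ones at -1.26 and -0.98, Bmf drops in both lines, and Bik is open on every array.

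Hrk encodes Harakiri, a BH3-only protein best known from neurons that lose trophic support. Its brightest probe read -6.44 in control K5 and -6.54 in control K6, not well above background on either array. After halofuginone it read -1.26 in K5 and -0.98 in K6, well above background on both. The halofuginone arrays were therefore high in both lines and did not overlap the controls. Hrk was at least 8.50-fold higher after halofuginone, with the control arrays set at their detection limits of -4.17 and -4.25, and the fit on values as read gave a limma adjusted p = 0.036. It entered the test only through its halofuginone arrays. The probe at position 516 was also dim in both controls, at -6.28 and -6.43, and was well above background only after treatment, at -4.55 and -4.16. It had the same direction as the probe at 5301 and missed the threshold when each probe was tested on its own (limma adjusted p = 0.051). Both probes started from background readings, so the sizes of their changes are not compared. Its treated mean lies below the limits of the control arrays, so no fold is given for it. In that probe-level test 2.03% of 28262 probes were called higher and 2.57% lower. The call of Hrk held in 7 of 15 alternative settings. It was lost without the line as a block (limma adjusted p = 0.082), without a filter on dim genes (0.067), with dim values raised to 1 common floor (change 3.05, adjusted p = 0.11), and in the other 5 given in the closing section.

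The 250 bases upstream of the RefSeq start of Hrk are shown because they hold a match to the C/EBP-ATF composite element that ATF4 and CHOP are known to bind. The region is on GRCm38.p6 at chr5:118169514-118169763, plus strand, and capitals mark the match, whose first base is at -114 from the start.
Hrk upstream region: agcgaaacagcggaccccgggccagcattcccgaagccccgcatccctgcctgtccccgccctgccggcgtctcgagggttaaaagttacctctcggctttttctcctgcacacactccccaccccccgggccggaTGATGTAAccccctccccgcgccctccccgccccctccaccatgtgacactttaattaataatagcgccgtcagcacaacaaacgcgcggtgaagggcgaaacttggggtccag
The search was for TGATGNAA (C/EBP-ATF composite element), TGACGTCA (CRE), TGANTCA (AP-1), GTAAACA (forkhead) and CACGTG (E-box), each on both strands, with no match of 1 motif inside another. Windows of the same length were searched for 8 members, 15 windows in all, and 4 members had a match. No window of Pmaip1 or Bik was searched, so nothing is known here of matches in them. Among the 8 members searched, TGATGNAA was found in Hrk alone, GTAAACA in Bbc3 and Bcl2l11, and CACGTG in Bbc3 and Bax. The other motifs were found in none of them. Of all 32851 windows in the table, 3.45% hold TGATGNAA, 3.17% GTAAACA and 6.02% CACGTG. A match is a string of letters, and no binding was measured. A link between the match and the rise of Hrk was not tested.

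Bbc3 encodes PUMA, which can bind every anti-apoptotic protein of the family. Its single probe, on mm9 at chr7:16903403-16903462, read 1.55 and 1.22 in control K5 and K6 and 2.07 and 3.23 after halofuginone. Both treated arrays were above both controls, but the K5 array only slightly, with a change of 0.52 in K5 and 2.01 in K6. The change over both lines was 1.26 (SE 0.45) and did not pass (limma adjusted p = 0.15), and it was 0.68 without the halofuginone K6 array. Pmaip1 encodes NOXA, which binds chiefly MCL1. It read 2.01 and 2.20 in the controls and 2.77 and 3.86 after halofuginone, again without overlap and with the larger change in K6, 1.65 against 0.76. Its change of 1.21 (SE 0.34) did not pass (limma adjusted p = 0.10) and was 0.67 without the halofuginone K6 array. It passed in 3 of 16 alternative settings: with normexp background correction (adjusted p = 0.039), with an intensity trend (0.040) and among genes well above background on all 4 arrays (0.035).

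Bcl2l11 encodes BIM, which binds all anti-apoptotic proteins and can activate BAX directly, and which is made in several splice forms. Its brightest probe, at position 4804 of a long transcript, read 1.29 and 1.39 in the controls and 1.30 and 1.66 after treatment. The groups overlapped, and the change of 0.14 (SE 0.26) did not pass (limma adjusted p = 0.73, 95% interval -0.59 to 0.88). The probe at position 682 of the same transcript reads across a splice junction, since its ends lie 11096 bases apart on the genome, and changed by 1.05 in K5 and 0.62 in K6 (limma adjusted p = 0.14 in the probe-level test). Another transcript of the gene is read by dim probes at positions 450 and 2204. The first was well above background only in control K5, at -3.15, and the second only in control K5 and halofuginone K6, at -3.74 and -4.45. The 4 probes thus did not move together, with the long transcript at or above its control level in both lines. The other transcript was near or under the detection limit in control K6 as well as after treatment.

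Bid encodes a BH3-only protein that caspase 8 cleaves and so links death receptors to the mitochondrion. Its bright probe read 1.15 in control K5 and 2.34 in control K6, and 2.58 and 2.84 after halofuginone. Both treated arrays were above both controls, and Bid was the member with the larger change in K5, 1.43 against 0.49 in K6. The change of 0.96 (SE 0.35) did not pass (limma adjusted p = 0.15). It was 0.37 without the control K5 array, 1.56 without the control K6 array and 0.18 with the mean over both Bid probes. A second Bid probe, for a short transcript, and the single probe of Bik, a BH3-only protein of the endoplasmic reticulum, were not well above background on any array. Bik read between -6.80 and -6.38 and was not tested.

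Bmf encodes a BH3-only protein that is held at the cytoskeleton and released when cells detach. Its brightest probe, at position 4570, read 3.25 in control K5 and 2.26 in control K6 and fell to 0.28 and -1.75 after halofuginone. All 4 arrays were well above background, and both treated arrays were below both controls. Bmf fell by 3.49 on the log2 scale (SE 0.36, limma adjusted p = 0.037). The controls exceeded the treated arrays 11.3-fold, or 7.85-fold in K5 and 16.1-fold in K6. The probe at position 754, on the same transcript, read -2.49 and -3.15 in the controls and -2.88 and -3.30 after treatment. Its changes of -0.39 and -0.16 did not pass (limma adjusted p = 0.51 in the probe-level test), so the fall was read by 1 of the 2 probes. The call of Bmf held in 7 of 16 alternative settings. With the mean of both probes the change was -1.88 (adjusted p = 0.053), and without the line as a block the adjusted p was 0.12.

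**Figure D2:**
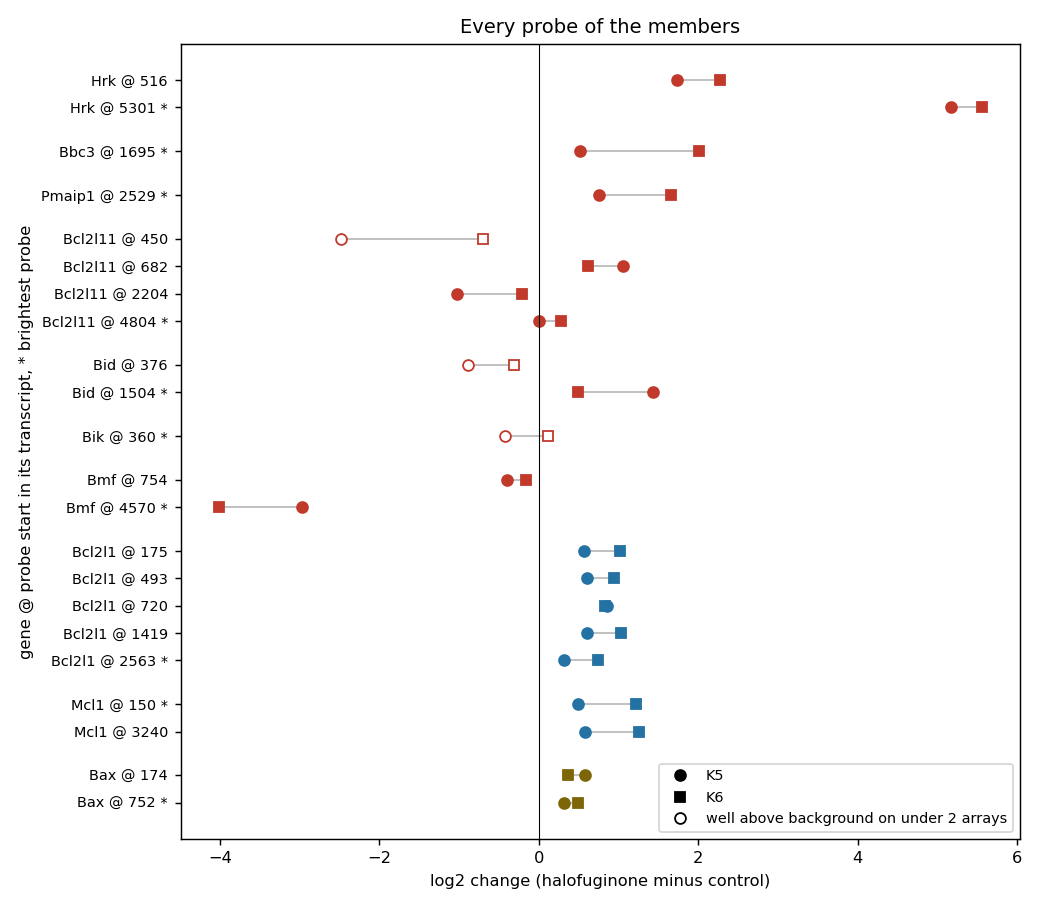
Log2 change after halofuginone (x axis) for each of the 22 probes, labelled by gene and by the start of the probe in its transcript, with circles for K5 and squares for K6 and colours for the 3 roles. Open symbols are probes well above background on fewer than 2 arrays; the Bmf pair is far apart, both Hrk probes start from background readings in the controls, and the 5 Bcl2l1 probes lie between 0.32 and 1.03.

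The anti-apoptotic members were higher after halofuginone in both lines by amounts that did not pass. Bcl2l1, which encodes BCL-XL, read 5.66 and 5.34 in the controls and 5.98 and 6.08 after treatment. Its change was 0.53 (SE 0.28, limma adjusted p = 0.26), with a 95% interval from -0.24 to 1.30. All 5 Bcl2l1 probes, of which those at positions 1419 and 2563 overlap on the genome, were well above background on all arrays and higher after treatment in both lines, from 0.32 to 0.85 in K5 and from 0.74 to 1.03 in K6. Mcl1 read 4.46 and 4.54 in the controls and 4.95 and 5.77 after treatment, with a change of 0.86 (SE 0.31, limma adjusted p = 0.15) and a 95% interval from -0.018 to 1.73, and it was 0.45 without the halofuginone K6 array. Its second probe gave 0.58 in K5 and 1.26 in K6, against 0.49 and 1.22 at the brighter one, so the probes of both genes moved alike. The intervals leave room for a rise of more than 2-fold in each. Bax read 3.71 and 3.75 in the controls and 4.03 and 4.24 after treatment, a change of 0.40 (SE 0.26, limma adjusted p = 0.34, 95% interval -0.32 to 1.12), and its second probe gave 0.59 and 0.36.

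BH3-only genes were next set against the anti-apoptotic genes within each line, as a description of 1 array pair per line with no test. In K5 the median change of the 6 tested BH3-only members was 0.64 and that of the 2 anti-apoptotic members 0.41, against -0.027 over all tested genes. In K6 these medians were 1.07 and 0.98, against 0.044. The medians of the classes therefore lay within 0.23 of each other in K5 and within 0.091 in K6. Their order reversed in K6 with quantile normalization (-0.0098), normexp (-0.28) and the authors' deposited values (-0.0092), and in both lines with the mean over a gene's probes (-0.17 in K5 and -0.20 in K6). That mean takes in a Bid probe not well above background on any array and a Bcl2l11 probe well above it only in control K5. The BH3-only medians also include Hrk, which entered the test only through its halofuginone arrays. Among the other tested BH3-only members the middle change was 0.52 in K5 (Bbc3) and 0.49 in K6 (Bid). In K6 that change lies below both anti-apoptotic members. Hrk, Pmaip1, Bbc3 and Bid changed more than both anti-apoptotic members in K5, and Hrk, Pmaip1 and Bbc3 did in K6. Bmf was far below both in each line, and Bcl2l11 was below both as well. These places rest on each gene's brightest probe, and that of Bcl2l1 had the smallest change of its probes in each line. In K5 the Bcl2l1 probe at position 720 changed by 0.85, above Pmaip1 (0.76) and Bbc3 (0.52) but below Bid (1.43). In K6 Pmaip1 (1.65) and Bbc3 (2.01) were above every Bcl2l1 and Mcl1 probe, of which the highest was at 1.26. Pmaip1 kept its place above both anti-apoptotic members in both lines in all 8 ways of preparing the values. Hrk did as well, but it entered the test only through its halofuginone arrays, so nothing is read from its place. Bbc3 kept its place in K6 in all 8. In K5 it lost that place with quantile normalization, with normexp, with the authors' deposited values and with the mean over probes.

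**Figure D3:**
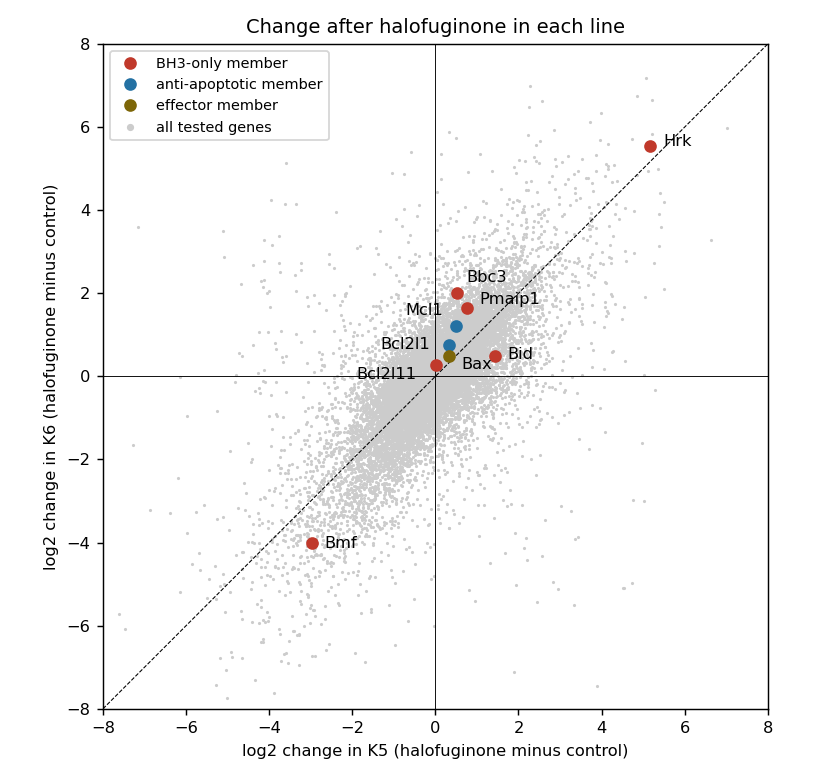
Log2 change after halofuginone in K5 (x axis) against K6 (y axis), with all 19093 tested genes in grey, the 9 tested members in colour by role and the dashed line marking equal change. Hrk lies at the upper right and Bmf at the lower left, and 8 of the 9 members have the larger absolute change in K6. Hrk is among the 8 and starts from background readings in the controls, so the order of its changes is not read.

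The size of the change was then set side by side in the lines. Of the 9 tested members 8 had the larger absolute change in K6, a property shared by 54.3% of all tested genes, and Bid was the exception. Hrk is among the 8, but its changes start from background readings in the controls, so their order is not read. In K5, 2 members (Hrk and Bid) were at least 2-fold higher and 1 (Bmf) at least 2-fold lower, against 14.1% and 14.9% of tested genes. In K6, 4 members (Hrk, Bbc3, Pmaip1 and Mcl1) were at least 2-fold higher and Bmf lower, against 16.4% in each direction. Hrk entered the test only through its halofuginone arrays, so nothing is read from its part in these counts. With 1 array per line and condition, no difference between the lines' changes was tested. With treatment in the fit, 0 members differed in level between K6 and K5, and 0.173% of tested genes did. Bmf came nearest to the threshold, with K6 minus K5 at -1.51 (SE 0.36, limma adjusted p = 0.22).

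Other genes of the BCL2 family were examined next. Of 7 further anti-apoptotic genes, 5 were on the array under these names and 2 were tested, with 0 past the threshold. Bcl2l2, which encodes BCL-W, had a change of 1.44 (SE 0.26, limma adjusted p = 0.053) from -0.16 and -0.46 in the controls to 1.16 and 1.09. It passed in 4 of 16 alternative settings, with median centring (adjusted p = 0.048), normexp (0.015), an intensity trend (0.021) and the filter on all 4 arrays (0.013), and its change ranged from 1.29 to 1.58 over the 16. Bcl2 itself had -0.34 (SE 0.28, adjusted p = 0.44). Of 11 further effector and BH3 genes, all tested, 1 rose, 2 fell and 8 did not pass, with a median of -0.75. Over all tested genes 3.88% were called higher and 5.08% lower, and nothing is read from the list's count. Bcl2l15 rose by 2.45 (SE 0.26, limma adjusted p = 0.037). Bcl2l14 was at least 18.9-fold lower after halofuginone (limma adjusted p = 0.036), from -0.62 and -0.83 to -5.24 and -5.67. It entered the test only through its control arrays, and its treated readings are not well above background. Bnip3, a mitophagy receptor induced by hypoxia, fell by 2.96 (SE 0.46, limma adjusted p = 0.047).

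**Figure D4:**
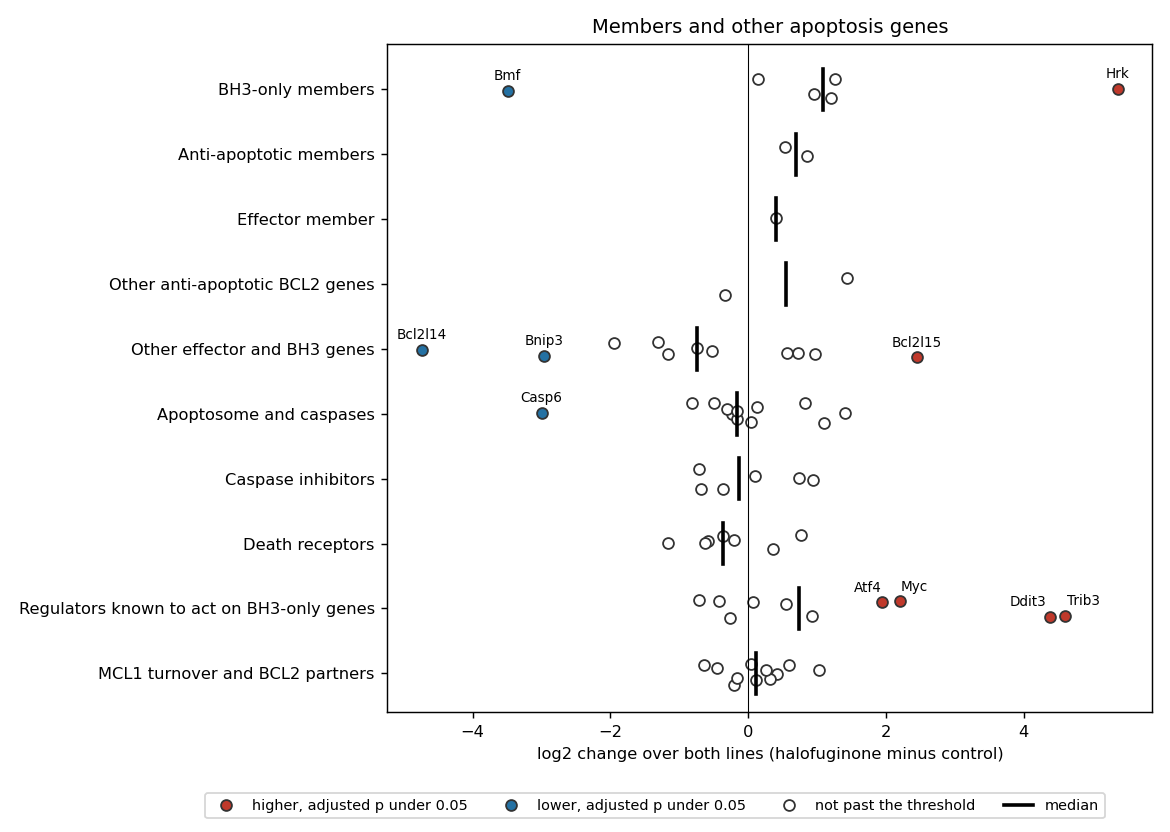
Log2 change over both lines (x axis) of each tested gene in the 3 member classes and in 7 lists of other apoptosis genes (y axis), with red for higher, blue for lower and open for not past the threshold, and bars at the medians. Points are spread vertically at random; 5 genes are red or blue in the member classes and the other BCL2 genes together (Hrk, Bmf, Bcl2l14, Bnip3 and Bcl2l15), and 4 regulators are red.

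Downstream of the mitochondrion, of 12 genes of the apoptosome and caspases, 0 rose, 1 fell and 11 did not pass, with a median of -0.16. The shares over all tested genes were 3.88% higher and 5.08% lower, and nothing is read from the counts of these lists. Casp6, an executioner caspase, fell, with the controls 7.99-fold above the treated arrays (limma adjusted p = 0.042), from 2.87 and 2.22 to 0.45 and -1.36. None of 6 caspase inhibitors passed in limma (0 of 6, median -0.14). The largest changes among them were 0.94 for Cflar, which encodes the caspase 8 inhibitor c-FLIP, 0.74 for Birc6 and -0.71 for Birc3. None of 7 death receptor genes passed either (0 of 7, median -0.37), with -1.16 for Tradd, an adaptor of the TNF receptor, 0.77 for Fas and -0.62 for Tnfsf10. Of 11 genes of MCL1 turnover and BCL2 partners 0 passed (median 0.11), with 1.03 for Huwe1, a ubiquitin ligase of MCL1, 0.59 for Usp9x, a deubiquitinase of MCL1, and -0.64 for Bag1. These values are of the brightest probes. Over all probes that met the same background filter, changes ran from 0.97 to 3.08 for Huwe1 and from 0.61 to 1.91 for Cflar. They ran from 0.74 to 0.95 for Birc6 and from -0.71 to -0.35 for Birc3.

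Of 10 regulators known to act on BH3-only genes, 4 rose, 0 fell and 6 did not pass. Of all tested genes, 3.88% were called higher and 5.08% lower. The list was chosen with earlier results of these data known, so nothing is read from the count. Ddit3, which encodes CHOP, rose by 4.38 (SE 0.50, limma adjusted p = 0.039) at its brightest probe and had a change of 2.26 at its other one, and Trib3, an inhibitory partner of ATF4 and AKT, by 4.60 (SE 0.45, adjusted p = 0.037). Atf4 rose by 1.95 and Myc by 2.21. Trp53, which encodes p53 and was also named after values were seen, had -0.26 (SE 0.26, limma adjusted p = 0.53). Jun, Foxo1 and Foxo3, singled out after their values were seen, had changes of -0.41, -0.10 and -0.88 in K5 and of 2.27, 1.20 and 1.003 in K6, and this difference was not tested. The median of the 10 regulators was -0.078 in K5 and 1.71 in K6.

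By likeness of pattern, measured as the Euclidean distance over the 4 arrays after each gene was centred on its own mean, the 3 tested genes nearest to Hrk were Car6, Rab39b and Stbd1. Hrk, Car6 and Rab39b were well above background only on the halofuginone arrays, so these distances rest on background readings and no order is read from them. The nearest to Bmf were Rnase4 (0.12), Fcor (0.17) and Clca1 (0.24), with changes from -3.09 to -2.90 in K5 and from -4.35 to -3.84 in K6.

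All 11 epithelial and ductal markers were well above background on all 4 arrays, and 1 of them, Muc1, fell by 3.40 (SE 0.26, limma adjusted p = 0.036). Of 7 immune markers 5 were as well, and the log2 summed level of the list was 4.92 and 4.77 in the controls and 3.75 and 3.29 after halofuginone. Such a sum is set largely by its brightest probes. Here Cd14 was the brightest in the controls, at 4.26 in K5 and 4.03 in K6, against 1.53 and -0.0042 after treatment. Of 8 fibroblast and stellate markers 1 was well above background on all arrays, Acta2, and the summed level was 4.16 and 3.99 against 3.56 and 3.22. The immune markers Cd14 and Cd68 fell, by 3.38 and 1.79 (limma adjusted p = 0.040 and 0.044). The other tested immune markers did not pass, with changes of 0.61 for Ptprc, -0.29 for Itgam and -0.83 for Cd3e. The endothelial marker Kdr, not well above background in control K5, rose by 2.61 (limma adjusted p = 0.037). The acinar marker Cela1 fell by 2.53 (limma adjusted p = 0.037). Of 6 acinar markers 2 were well above background on all 4 arrays, with sums of 1.87 and 1.25 against -0.42 and -1.11. Of 5 endothelial markers 0 were, with sums between -3.61 and -1.10. The part of these shifts in the members' values was not tested. Spots well above background made up 47.2% and 48.6% of the control arrays and 53.1% and 54.0% of the halofuginone arrays, and no spot was saturated. The 4 arrays limit the precision of every value.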

How the data were processed

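Per the labels' protocols, each sample's RNA was Cy3-labelled and read on its own 1-colour Agilent array. Spot intensity was deposited by the authors as scanner output of Agilent Feature Extraction, version 10.7.1.1 per the file headers and 9.5.1.1 per the submitters' processing notes. Background subtraction and spatial detrending are part of that processed signal, per the file headers, and no scaling between arrays is. Control and outlier spots were left out, spots of a probe were averaged on the log2 scale (301 of 56605 probes had no value on some array), and the 75th percentile of each array's 59305 spots was subtracted. Probe coordinates are on mm9 (NCBI37), and 20 of the 22 member probes matched an accession in the RefSeq table of GRCm38.p6, each with the same symbol. The authors' deposited value table was an alternative.

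Halofuginone was compared with control in limma 3.58.1 (R 4.3.3; lmFit, eBayes) with the line as a block, which leaves 1 residual and 2.97 prior degrees of freedom. P-values were adjusted over all 19093 tested genes. Samples numbered 5 are K5 cells and those numbered 6 are K6 cells, which pairs them. The difference between the lines in controls correlated across genes with that in treated samples (r = 0.50). A permutation of 2 against 2 samples cannot go below p = 0.33, so none was used. For a bound, each array of the dim group was set to its detection limit (the dimmest probe still well above background there) or the probe's signal if higher. The p-value printed with a bound is from unbounded values. Of the steps, only the limma fit was tested on simulated data.

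Named were all members with every probe, listed genes past the threshold (or the 3 with the largest change where none or over 6 passed), and the 3 nearest genes of each called member. Jun, Foxo1, Foxo3 and Trp53, and the markers Acta2, Ptprc, Itgam and Cd3e, were named outside this rule, after their values were seen. The members and lists were chosen with earlier results of these data known. Upstream sequences are from RefSeq (GRCm38.p6). All 4 arrays were on 1 slide, so no batch could be tested.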

Additional observations from a re-analysis of the deposited data

Results flagged for a closer look

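Fas, the death receptor gene, changed by 1.69 (log2) between the K5 arrays and by -0.14 between the K6 arrays. It is given here because the lines moved in opposite directions. With single arrays this difference was not tested. The gene's 2 passing probes also disagreed, with mean changes of 0.77 and -1.48.
Jun, Foxo1 and Foxo3, regulators of BH3-only genes, are given for the same reason, with log2 changes of -0.41, -0.10 and -0.88 between the K5 arrays and of 2.27, 1.20 and 1.003 between the K6 arrays, again not tested.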

How the results depend on the processing

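Hrk stayed higher and Bmf lower in every setting run, with changes from 2.70 to 5.77 for Hrk (adjusted p from 0.0045 to 0.41) and from -4.51 to -1.88 for Bmf (0.0032 to 0.45), but their calls depended on the setting. In limma 0 genes were called higher and 0 lower without the replicate block (4492 at an unadjusted p under 0.05), without a filter (15052), with the 75th percentile over probes detected on all arrays (6481) and with 1 common floor (5859), so 0 BH3-only members were higher and 0 lower in each of these. Without the replicate block the adjusted p was 0.082 for Hrk and 0.12 for Bmf. Leaving out each array in turn, again without the block and with the lone sample assumed to vary like the other group, gave 0 calls in each direction (2157 to 4679 genes at an unadjusted p under 0.05), with Bcl2 at 0.12 without control K6 and Bcl2l11 at -0.038 without halofuginone K6. Leaving out a whole line (replicate 5 or 6) leaves no residual degree of freedom, so no count was run; Fas was -0.14 in K6 alone and 1.69 in K5 alone, and Jun, Foxo1 and Foxo3 also had opposite signs in the lines. Higher and lower genes numbered 1941 and 2294 with normexp, 2039 and 2161 with an intensity trend, 1909 and 2103 on genes well above background on all 4 arrays (where Hrk was not tested), 224 and 368 with the mean over probes, 989 and 1493 with median centring and 575 and 725 among probes. Pmaip1 brought the BH3-only members higher to 2 with normexp and with a trend, and 0 BH3-only members were lower with the mean over probes, where 2 instead of 4 exceeded both anti-apoptotic members in K5. Neither Bcl2l1 nor Mcl1 passed in any setting run; Bcl2l2 passed in 4 of 16. Genes that differ between the lines numbered 33 in the main setting, 149 with quantile normalization, 152 with the authors' values, 293 with a trend, 296 with median centring, 305 with the filter on all 4 arrays, 448 with normexp, and 0 with percentile scaling on detected probes, the common floor, the mean over probes, no filter and single probes. Bcl2l11 in K5 turned from 0.0093 to -0.052 with quantile normalization, -0.081 with median centring, -0.058 with scaling on detected probes, -0.051 with normexp, -0.051 with the authors' values and -0.61 with the mean over probes, which also gave -0.0038 in K6, -0.31 over both lines, -0.68 for K6 minus K5 and -0.11 for Fas. Bcl2l1, K6 minus K5, turned to 0.034, 0.19 and 0.032 with quantile normalization, normexp and the authors' values. The BH3-only minus anti-apoptotic median turned to -0.17 in K5 and -0.20 in K6 with the mean over probes, and in K6 to -0.0098, -0.28 and -0.0092 with quantile normalization, normexp and the authors' values. The median change of all tested genes moved by -0.12 with scaling on detected probes and by -0.35 without a filter. The cause of these differences was not tested. Signal near background limits Hrk in controls, Bik, and the dimmer probes of Bid and Bcl2l11.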
